A study of Mus musculus with 6 samples.

Results

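The Prss genes are named as serine proteases, and they were taken here as every row of the gene table whose symbol is Prss followed by a number and at most 1 letter. This gave 40 members of 34144 gene rows. RNA came from the seminiferous tubes left after the capsule of the testis was removed, in C57Bl/6J mice 3 months old. The groups were 3 wild-type mice and 3 Nsun7-/- mice, with 1 library per mouse. Nsun7 encodes a protein of the NOL1/NOP2/SUN family of RNA methyltransferases. The labels give the knockout by its genotype alone, and neither the design of the allele nor the origin of the controls (littermates or not) is stated there. The questions asked were which Prss genes the testis expresses and which of them differ in the knockout. In short, 25 of the 40 were expressed, with the acrosomal protease gene Prss39 highest. Prss47, whose change was known beforehand, was lower in the knockout, at 53.2% of its wild-type mean. It passed the threshold in 8 of 17 alternative analyses of the same 6 libraries.

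Most Prss proteins share the trypsin fold, in which a histidine, an aspartate and a serine form the catalytic site, and many are made as inactive precursors that must be cut to work. The family holds digestive trypsins, membrane-bound proteases of epithelia and proteases of blood cells. A large branch is made mainly in male germ cells, where its proteins lie in the acrosome or on the sperm surface. Some of that branch have lost catalytic residues and act in the folding or sorting of other sperm proteins, among them ADAM3, a surface protein that sperm need to enter the oviduct.

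For the 2 members of highest level, Prss39 and Prss37, the stretch just before the gene's start is shown as an example of the DNA from which strongly expressed Prss genes are read. The sequences are RefSeq's for the build GRCm38.p6, which is not the build named for the deposited values, and were matched by symbol. Prss39 lies on the plus strand (chr1:34498162-34498409) and Prss37 on the minus strand (chr6:40519509-40519758), and both are printed 5′ to 3′ in lower case.
Prss39: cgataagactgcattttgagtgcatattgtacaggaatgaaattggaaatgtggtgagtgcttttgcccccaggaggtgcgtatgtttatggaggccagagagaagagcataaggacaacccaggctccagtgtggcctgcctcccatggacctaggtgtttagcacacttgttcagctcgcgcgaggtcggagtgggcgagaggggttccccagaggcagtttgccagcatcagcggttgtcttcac
Prss37: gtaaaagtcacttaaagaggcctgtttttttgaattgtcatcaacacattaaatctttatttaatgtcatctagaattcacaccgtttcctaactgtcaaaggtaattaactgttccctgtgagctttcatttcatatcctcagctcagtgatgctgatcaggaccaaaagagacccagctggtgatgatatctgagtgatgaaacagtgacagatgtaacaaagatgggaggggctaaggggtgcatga
The G and C content was 53.6% in the Prss39 stretch and 39.6% in the Prss37 stretch. Windows were available for 29 of the 40 members, and there were 32851 windows of 27025 genes in all. With the windows of a gene averaged, the median G and C content over genes was 54.4% for these members and 52.4% for all genes. TGACGTCA, the full cAMP response element, was searched on both strands because factors of the CREB and CREM group bind it in spermatids. No member window held it, against 1.77% of all genes with a window. Its longer arm TGACG, which every full element also holds, was present for 5 of the 29 members (17.2%) and for 19.8% of all genes. Among members at 1 TPM or more in every wild-type library it was present for 3 of 18, which were Prss23, Prss35 and Prss38. These are matches of letters within a short window, and no binding was measured.

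Libraries held between 23480448 and 28558865 estimated counts, of which the Prss genes took between 0.0795% and 0.0908%. Levels below are in TPM (transcript abundance corrected for length and scaled to a fixed total per library) where genes are set side by side. Comparisons of genotypes are in CPM (counts scaled to a common library size), where a difference is a log2 fold change of knockout over wild type with its standard error (SE). Nsun7 itself had CPM of 36.6, 35.7 and 37.2 in the 3 wild-type libraries, given here and below in the order of mouse number, and of 18.0, 17.8 and 25.2 in the knockout libraries, so its transcripts were lower in every knockout library and were not lost. Wild-type mouse 1 and knockout mouse 3 lay at opposite ends of the first principal component, which held 35.5% of the variance. Wild-type mouse 1 also held 649 counts of the epididymal gene Crisp1, against 0 to 4 in the other libraries. Knockout mouse 3 was the lowest of the 6 libraries for 16 of 28 Prss genes tested (57.1%), against 28.7% of all genes tested. Markers of pachytene spermatocytes, round spermatids and elongating spermatids were all present (8 of 8 in each list).

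Wild-type testis expressed 25 of the 40 members at 1 TPM or more in each of the 3 libraries, and 22 of them at 5 TPM or more. Summed over the family, the level ran from 717.6 to 1018 TPM in wild type and from 989.8 to 1069 TPM in the knockout. Rmrp, the RNA of RNase MRP, took 33.3%, 22.2% and 15.7% of all TPM in wild type and 17.5%, 12.9% and 11.4% in the knockout. By construction, a larger share lowers the TPM of all other genes in that library. Prss39 was the most abundant member and Prss37 the next in all 6 libraries. Prss21 held place 3 in 5 libraries and place 4 in knockout mouse 3. Below them the order changed from library to library: Prss59 held places 3 to 6, Prss50 places 4 to 7 and Prss54 places 5 to 9.

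**Figure D1:**
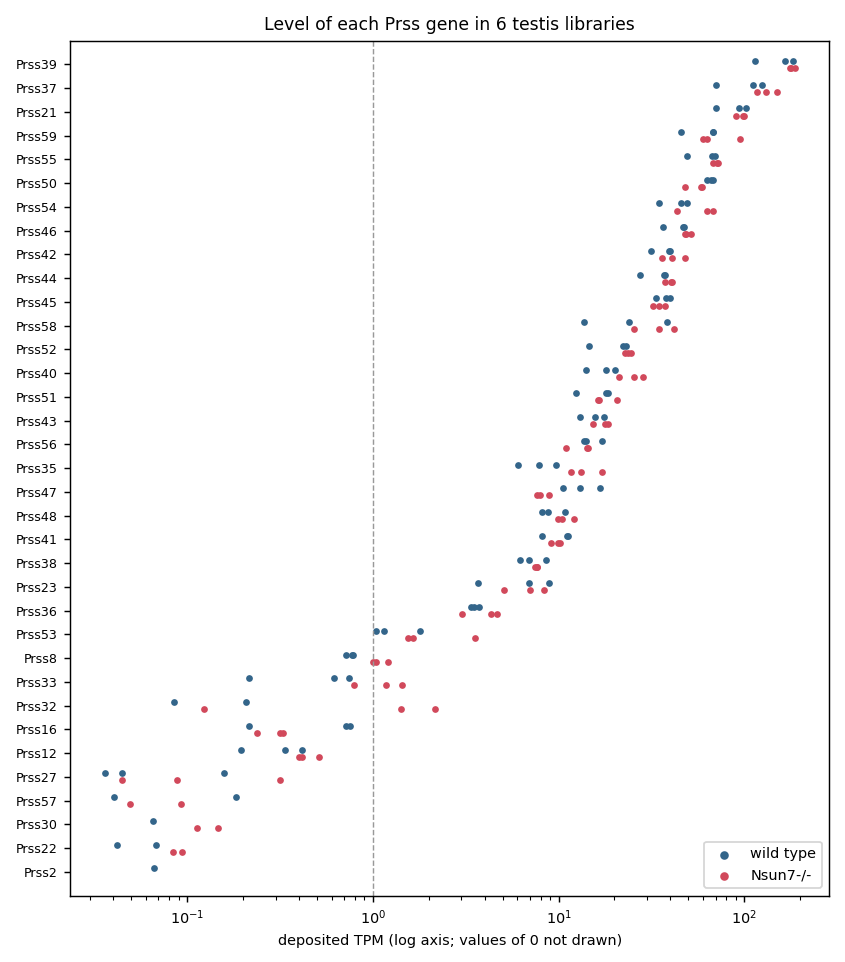
Deposited TPM of each Prss gene with a count in at least 1 library (log axis), 1 point per library, with wild type in blue and Nsun7-/- in red. The dashed line marks 1 TPM, and 25 genes lie above it in every wild-type library.

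Prss47, a trypsin-fold gene placed here among testis members without an assigned role, was lower in the knockout. It was the 1 member of 28 tested that passed, where 0.567% of all 21002 genes tested passed. Wild-type libraries held 288, 392 and 267 of its counts, and knockout libraries 207, 160 and 190. As CPM these were 13.0, 15.2 and 10.3 in wild type and 8.37, 6.00 and 6.15 in the knockout, so each knockout library lay below each wild-type library. The means were 12.8 ± 2.46 and 6.84 ± 1.33 CPM (SD, n = 3 each), and the knockout kept 53.2% of the wild-type mean. The log2 fold change was -0.91 (SE 0.18, edgeR's quasi-likelihood test, Benjamini-Hochberg adjusted p = 0.0418). For Prss47 alone, permuting the 6 CPM values (exact, two-sided) gave p = 0.1, the smallest value that 3 against 3 allows. In deposited TPM it stood at 10.6, 16.7 and 13.0 in wild type and at 8.88, 7.70 and 7.94 in the knockout, again without overlap. On that scale the difference was -0.64 with an adjusted p of 0.349 (limma on log2(TPM + 1)). Where Prss47 was place 16 to 18 of the family by TPM in the wild-type libraries, it was place 21 or 22 in the knockout libraries.

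The direction of Prss47 held in all 17 alternative analyses, and the call held in 8 of them. These alternatives used the same 6 libraries or part of them. Every knockout CPM lay below every wild-type CPM, so leaving libraries out could hardly turn the direction. Across those alternatives the log2 fold change ran from -1.09 to -0.64 and the adjusted p from 0.00232 to 0.387. Leaving single libraries out of the edgeR fit ended the call in 4 cases, with an adjusted p of 0.205 for wild-type mouse 1, 0.238 for wild-type mouse 2, 0.185 for knockout mouse 2 and 0.14 for knockout mouse 3. It was kept without wild-type mouse 3 (0.0354) and without knockout mouse 1 (0.00248). With the libraries at the 2 ends of the principal component left out together, the log2 fold change was -0.83 and the adjusted p 0.363. No 31-base stretch of Prss47 transcripts occurs in another annotated gene, and no annotated gene overlaps it. In a bulk tissue, fewer cells that make a transcript and less of it per cell cannot be told apart. The summed markers of pachytene spermatocytes ran from 7794 to 8779 CPM in wild type and from 6329 to 7947 CPM in the knockout, and those of round spermatids from 837.6 to 986.2 and from 812.7 to 957.3 CPM. Elongating spermatid markers summed to 7581 to 9886 CPM in wild type and 6803 to 9281 CPM in the knockout, with a median log2 fold change of -0.21. Markers of peritubular and smooth muscle cells summed to 704.3 to 749.2 CPM in wild type and to 560.7 to 683.4 CPM in the knockout. These did not overlap, and knockout mouse 3 was lowest. Mast cell and neutrophil markers did not overlap either, at 74.4 to 76.2 CPM in wild type and 76.4 to 78.0 CPM in the knockout. All other marker lists overlapped, those of Sertoli cells and spermatogonia among them. No tested marker of spermatocytes, spermatids, peritubular and smooth muscle cells, or mast cells and neutrophils passed. Among 8 markers of Leydig cells 2 passed, with a median log2 fold change of 0.70 over the list. The part of any of these cell types in the Prss47 difference was not tested.

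Prss47 has 4 measured transcripts, and in each of them the mean of the estimated counts was lower in the knockout. The transcript of 1353 bases, which held 47.7% of the gene's counts, had 154, 196 and 81.7 estimated counts in wild type and 118, 49.0 and 119 in the knockout, with overlap. The transcript of 828 bases stood at 39.6, 76.3 and 63.6 in wild type and at 14.4, 28.3 and 0 in the knockout, without overlap. Their log2 fold changes were -0.77 (SE 0.46) and -2.17 (SE 1.08). The transcripts of 1406 and 1193 bases had log2 fold changes of -0.57 and -0.91, and the adjusted p was 0.932 for all 4. Over the family, 60 of 106 transcripts were tested and 0 passed (edgeR), where 0.0272% of all tested transcripts passed, and 3 had an unadjusted p under 0.05. Of the 6 nearest tested genes around Prss47 on chromosome 13, none passed. These were Cntnap3 (log2 fold change 0.13), Spata31 (0.33) and Spata31d1c (0.40) on one side and Mfsd14b (-0.03), Olfr466 (0.66) and Nlrp4f (0.23) on the other.

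**Figure D2:**
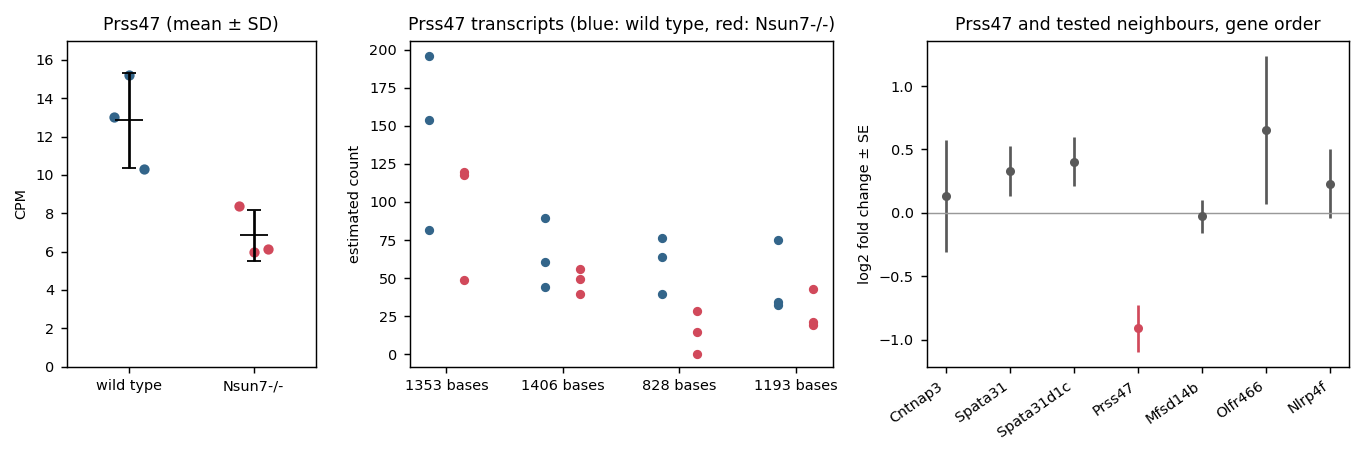
Left, CPM of Prss47 in each library with mean ± SD (n = 3 per genotype): the wild-type values lie between 10.3 and 15.2 and the knockout values between 6.00 and 8.37. Middle, estimated counts of its 4 transcripts by length in bases; right, log2 fold change ± SE of Prss47 (red) and the 6 tested neighbours (grey) in gene order.

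Across the family the count of changed members, 1 of 28, was a share of 3.57%. Of all tested genes, 0.333% passed the test and were lower in the knockout. Prss47 was named when the members were chosen, with its change already known, so the share of 3.57% carries no weight of its own. Prss47 is also counted in the members' shares that follow. Knockout mouse 3 was the lowest library for 57.1% of the members tested, against 28.7% of all genes tested. The part of that library in these shares was not tested. An unadjusted p under 0.05 was found for 6 members, 5 of them lower, which is 21.4% of those tested where the share over all genes was 8.39%. The genotypes did not overlap in CPM for 7 members (25%), where the share over all tested genes was 14.3%. Of these 7, Prss35 and Prss40 were higher and 5 were lower (17.9%), against 6.95% of all tested genes. Below 0 lay 20 of 28 log2 fold changes (71.4%), against 47.5% of all tested genes. The median was -0.07, with an interquartile range of -0.15 to 0.08, and the median over all tested genes was 0.01, with a range of -0.14 to 0.18 between their quartiles. On the log2(TPM + 1) scale 23 of the 28 members lay above 0, with a median of 0.19, and the median over all tested genes was 0.24. Apart from Prss47 the lowest adjusted p of a member was 0.415. The 12 members not tested had too few counts.

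**Figure D3:**
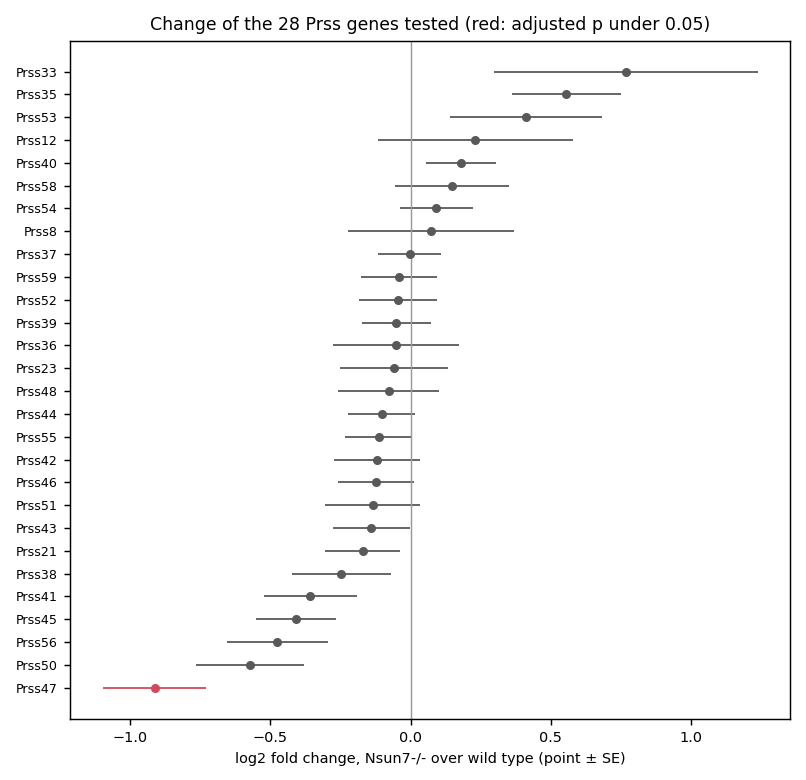
Log2 fold change of knockout over wild type (point) with its SE (bar) for the 28 Prss genes tested, sorted by value. Prss47 (red, -0.91) is the one with an adjusted p under 0.05, and 20 points lie below 0.

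The acrosomal members include the gene of highest level in the family. Prss39, known as TESP1, an acrosomal protease of mouse sperm, stood at 114, 165 and 184 TPM in wild type and at 177, 187 and 179 TPM in the knockout. Its CPM were 155 ± 9.76 against 150 ± 18.8 (SD, n = 3 each, wild type first), and the genotypes overlapped. Its neighbour Prss40, known as TESP2, stood at 14.1, 17.9 and 20.1 TPM in wild type and at 21.1, 25.6 and 28.5 TPM in the knockout. In CPM the 3 wild-type libraries of Prss40 lay close together, at 19.1, 19.2 and 18.8, and the knockout libraries stood at 20.3, 22.8 and 21.6. All knockout values of Prss40 were thus above all wild-type ones, with a log2 fold change of 0.18 (SE 0.12) that did not pass the test (edgeR's quasi-likelihood test, Benjamini-Hochberg adjusted p = 0.682). Of the 31-base stretches in Prss40 transcripts, 13.6% also occur in Cfc1 or Prss39, and Cfc1 overlaps it on the opposite strand. Prss52, known as TESP3, stood at 14.6, 22.2 and 23.1 TPM in wild type and at 23.7, 22.9 and 24.5 TPM in the knockout. In CPM its means were 16.52 ± 1.43 and 16.04 ± 1.73 (SD, n = 3 each, wild type first), with a log2 fold change of -0.04 (adjusted p = 0.936).

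Members known from the sperm surface and from sperm migration were the next in level. Prss37, a protease-like protein without full catalytic residues that sperm need to carry ADAM3, stood at 70.8, 112 and 124 TPM in wild type and at 117, 131 and 149 TPM in the knockout. In CPM the 6 libraries of Prss37 lay between 67.0 and 76.2, and its log2 fold change of -0.00 (SE 0.11) came with an adjusted p of 0.996. The highest library of Prss37 was 1.14 times the lowest, the narrowest spread of the 28 members tested. Prss21, or testisin, a protease held on the sperm surface by a glycosylphosphatidylinositol (GPI) anchor, had CPM of 78.9, 81.3 and 77.9 in wild type and of 81.0, 73.1 and 57.4 in the knockout. Only knockout mouse 3 and, by less, knockout mouse 2 lay below the wild-type range of Prss21, and its log2 fold change was -0.17 (SE 0.13, adjusted p = 0.707). Prss55, another GPI-anchored protease that sperm need to pass into the oviduct, stood at 49.1, 67.1 and 69.3 TPM in wild type and at 67.7, 71.9 and 71.5 TPM in the knockout. Its CPM were 49.8 ± 2.36 and 46.0 ± 4.67 (SD, n = 3 each).

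The testis-specific serine proteases named TESSP (Prss41 to Prss46) and the related testis protease Prss50 were all expressed, with mean levels over the 6 libraries between 9.95 and 60.5 TPM. Prss42 and Prss43 are known for a role in the progress of spermatocytes through meiosis. Prss42 stood at 31.3, 39.3 and 39.9 TPM in wild type and at 48.0, 35.9 and 41.0 TPM in the knockout. Prss43 stood at 13.0, 15.6 and 17.6 TPM in wild type and at 18.5, 15.3 and 17.7 TPM in the knockout. Prss44 had means of 33.9 ± 5.52 and 39.5 ± 1.62 TPM and Prss46 of 43.5 ± 6.05 and 49.3 ± 1.90 TPM (SD, n = 3 each, wild type first). On the CPM scale the genotypes overlapped for these 4 genes, with log2 fold changes of -0.12, -0.14, -0.10 and -0.12 in the order named. All 7 log2 fold changes of the group lay below 0, with a median of -0.14, where 47.5% of all tested genes lay below 0. For Prss42, Prss43, Prss44 and Prss46 the sign turned on log2(TPM + 1), a scale on which the median difference of all tested genes was 0.24. With wild-type mouse 1 and knockout mouse 3 left out together, the signs of Prss42 and Prss46 turned too.

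Prss50, Prss45 and Prss41 were the members of this group whose genotypes did not overlap, and none passed the test. They were 3 of 7 members and lower in the knockout, where 6.95% of all tested genes were lower without overlap. Knockout mouse 3 was the lowest library for each of them, and its part in these values was not tested. Prss50 had CPM of 102, 77.0 and 64.4 in wild type and of 63.5, 59.1 and 40.7 in the knockout, with its highest value in wild-type mouse 1 and its lowest in knockout mouse 3. Its log2 fold change was -0.57 (SE 0.19, adjusted p = 0.415), and with those 2 libraries left out it was -0.20. Prss45 had CPM of 41.1, 36.7 and 33.8 in wild type and of 30.9, 30.5 and 22.6 in the knockout. That difference was -0.41 (SE 0.14, adjusted p = 0.437), and it was also -0.20 without the same 2 libraries. Prss41, which the rule for named genes did not pick and which is given because its genotypes did not overlap, had CPM of 9.10, 10.3 and 8.90 against 8.29, 7.91 and 5.95, with an adjusted p of 0.593. It overlaps Prss32 on the opposite strand, and whether the counting used strand is not stated. Of the 31-base stretches in Prss41 transcripts, 0.482% also occur in another gene, and Prss32 had 27 counts over the 6 libraries.

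The remaining testis members were Prss59, Prss54, Prss58, Prss51, Prss47, Prss48 and Prss38, and all 7 were expressed. Prss59 stood at 45.7, 67.9 and 67.5 TPM in wild type and at 59.8, 62.8 and 94.4 TPM in the knockout, with knockout mouse 3 highest. Prss54 stood at 34.8, 45.8 and 48.9 TPM in wild type and at 43.6, 63.2 and 67.5 TPM in the knockout. In CPM both genes overlapped between genotypes, with log2 fold changes of -0.04 for Prss59 and 0.09 for Prss54. Prss58 varied most among the wild-type mice of this group, at CPM of 12.9, 17.7 and 24.7, and its knockout values of 17.4, 21.6 and 22.3 lay within that range. Prss51 lies on the opposite strand of Prss55 and overlaps it, but no 31-base stretch of Prss51 transcripts occurs in another annotated gene. Its mean level was 16.3 ± 3.42 TPM in wild type and 17.8 ± 2.45 TPM in the knockout (SD, n = 3 each). In CPM the means of Prss51 were 10.97 ± 1.18 and 10.01 ± 1.95 (log2 fold change -0.14, adjusted p = 0.81). Prss48 had means of 9.27 and 10.9 TPM but of 6.79 and 6.44 CPM, and Prss38 of 7.23 and 7.59 TPM but of 7.31 and 6.17 CPM, wild type first. The log2 fold changes were -0.08 for Prss48 and -0.25 for Prss38, and neither passed (adjusted p = 0.906 and 0.689).

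Of the members known from secretion in somatic tissues, Prss56, Prss35 and Prss23 were expressed, and neurotrypsin (Prss12) stayed between 0.194 and 0.511 TPM. Prss35 had CPM of 21.4, 27.0 and 19.4 in wild type and of 44.6, 28.1 and 27.1 in the knockout. All knockout libraries were above all wild-type ones, but knockout mouse 2 and 3 lay close to wild-type mouse 2. Its log2 fold change of 0.56 (SE 0.20) did not pass (adjusted p = 0.454), and without knockout mouse 1 it was 0.28. Knockout mouse 1 also had the highest sum of 8 Leydig cell markers, 4958 CPM, where the other knockout libraries had 2222 and 2953 and the wild-type libraries 1762 to 2900. The log2 fold changes of all 8 Leydig markers lay above 0 and 2 passed the test. The part of these cells in the Prss35 values was not tested. Prss56, a gene linked to eye size, had CPM of 32.7, 24.9 and 27.4 in wild type and of 24.5, 22.1 and 14.6 in the knockout, with a difference of -0.48 (SE 0.18, adjusted p = 0.502). That difference was -0.17 with wild-type mouse 1 and knockout mouse 3 left out. Prss23 had means of 6.51 ± 2.63 and 6.81 ± 1.63 TPM (SD, n = 3 each, wild type first). In CPM its genotypes overlapped, with a log2 fold change of -0.06.

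Members known from epithelia were low or absent. Prss36 (polyserase-2) stood at 3.51, 3.38 and 3.75 TPM in wild type and at 4.67, 4.32 and 3.04 TPM in the knockout. In CPM its genotypes overlapped, with a log2 fold change of -0.05. Prss53 (polyserase-3) stood at 1.05, 1.15 and 1.80 TPM in wild type and at 1.54, 1.65 and 3.54 TPM in the knockout, with knockout mouse 3 highest. Because 81.2% of the 31-base stretches of Prss53 occur in Gm21974 or Zfp646 too, its counts depend on how shared reads were split. Prostasin, Prss8, stood between 0.721 and 0.779 TPM in wild type and between 1.00 and 1.21 TPM in the knockout, while in CPM its genotypes overlapped. Prss33 lay between 0.216 and 0.747 TPM in wild type and between 0.793 and 1.44 TPM in the knockout, on 109 counts in all 6 libraries. The log2 fold changes were 0.77 (SE 0.47) for Prss33, 0.41 (SE 0.27) for Prss53 and 0.23 (SE 0.35) for Prss12, with adjusted p of 0.661, 0.671 and 0.847. Without knockout mouse 3 the Prss53 value was 0.03, and without wild-type mouse 2 that of Prss33 was 0.32. Prss32 had 27 counts over 6 libraries, yet its TPM reached 2.16 in knockout mouse 2. In that library 3 estimated counts fell on its transcript of 229 bases, and TPM is corrected for length. Prss27, Prss30 and Prss22 had 16, 9 and 7 counts, and the implantation proteases Prss28 and Prss29 had none.

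Members of digestive and blood cell types gave few counts or none. The digestive trypsins Prss1 and Prss3 had no count in any library and Prss2 had 1 count in wild-type mouse 2. For a gene without a count, 3 counts in a library allow at most 0.0971 to 0.136 CPM, which covers counting error only. Prss1 and Prss3 share 69.3% and 75.4% of their 31-base stretches with Gm5771 or Gm10334, so their counts are uncertain. The mast cell protease Prss34 had no count, and 6 of 10 markers of mast cells and neutrophils also had none. Prss57, a protease of neutrophil granules, had 14 counts, and 39.3% of its 31-base stretches occur in Fstl3. Prss16, the thymus-specific serine protease, had CPM of 0.725, 0.233 and 0.694 in wild type and of 0.243, 0.150 and 0.259 in the knockout, with overlap, and was not tested.

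Most Prss genes lie in runs, and the members of a run differ in level. With gaps of at most 100 kb between neighbours in the gene order of GENCODE M21, 29 members fell into 8 runs. The run on chromosome 9 holds Prss42, Prss44, Prss43, Prss45, Prss46 and Prss50 with no other coding gene between them, and all 6 were expressed, at wild-type means between 15.4 and 65.7 TPM. The run of 7 on chromosome 17 held 5 other coding genes, and there Prss21 at 88.8 TPM and Prss41 at 10.2 TPM stood beside 5 members with a wild-type mean under 1 TPM. In the run of Prss55, Prss51 and Prss52 on chromosome 14 the wild-type means were 61.8, 16.3 and 19.9 TPM. On chromosome 1, Prss39 and Prss40 differed at 154 and 17.4 TPM. The trypsins Prss3, Prss1 and Prss2 on chromosome 6 and Prss34, Prss28 and Prss29 on chromosome 17 had no member at 1 TPM. Prss47 lies outside the runs.

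**Figure D4:**
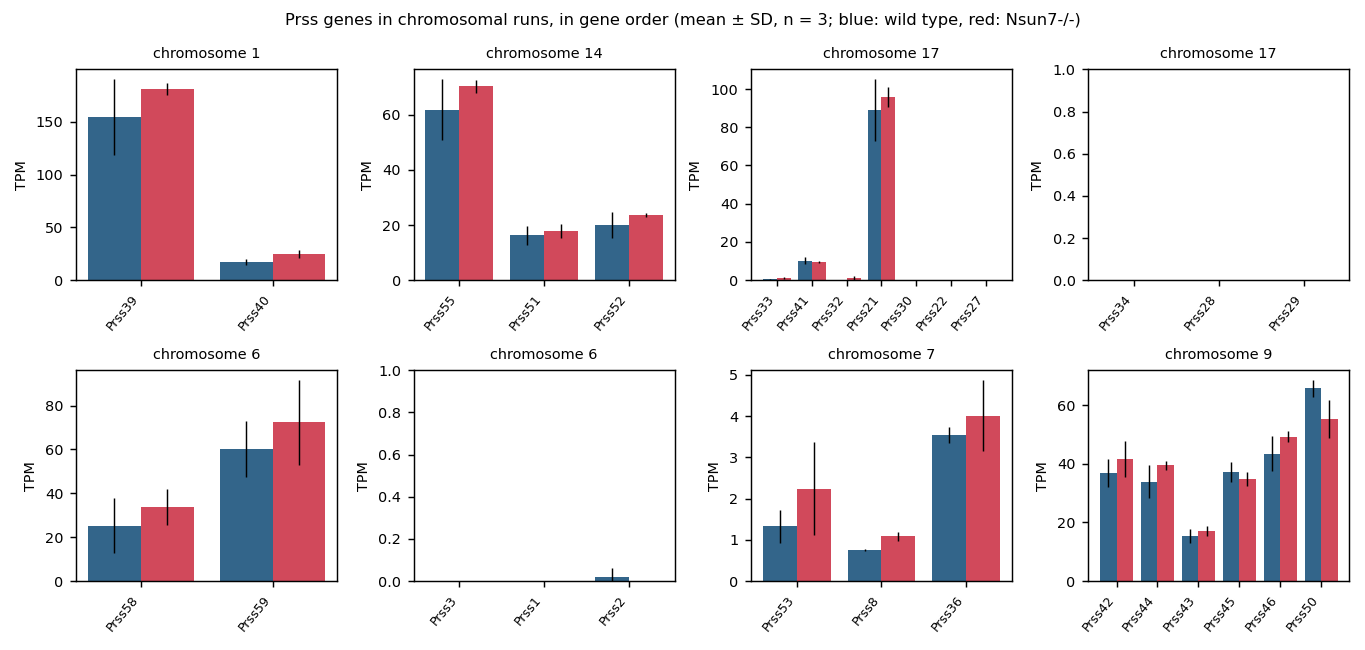
Mean TPM ± SD (n = 3) of the Prss genes in the 8 chromosomal runs, in gene order, with wild type in blue and Nsun7-/- in red. Each panel has its own axis from 0; all 6 genes of the chromosome 9 run are expressed, and the runs of Prss34 and of Prss3 hold values at or near 0.

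Lists of genes known to act beside these proteases were read in the same fit, where the median log2 fold change of all tested genes was 0.01. In DESeq2 and in limma voom, too, 0 genes passed in the lists for ADAM3, acrosin, the GPI anchor and the inhibitors. Of 19 genes for ADAM3 maturation and sperm migration, 0 passed in edgeR in either direction, with a median log2 fold change of 0.03 and 1 unadjusted p under 0.05. Adam3 stood at 272 ± 12.2 CPM in wild type and 287 ± 47.0 CPM in the knockout (SD, n = 3 each). The smallest p of the list was that of Tpst2, a tyrosine sulfotransferase, with CPM of 21.8, 19.9 and 19.5 against 17.7, 16.3 and 10.7 (log2 fold change -0.46, adjusted p = 0.493). Rnase10, which sperm need for ADAM3, followed at 0.40. Of 13 genes for acrosin and the acrosomal matrix, 0 passed, with a median of -0.12 and 1 unadjusted p under 0.05. Acr, the acrosomal protease acrosin, stood at 185 ± 15.3 and 170 ± 20.0 CPM (SD, n = 3 each). Spaca1 had a difference of 0.33 (adjusted p = 0.591), with knockout mouse 3 highest at 40.0 CPM, and Pcsk4, a convertase of sperm precursors, one of -0.21. Of 12 genes for the GPI anchor, 0 passed and 0 had an unadjusted p under 0.05, with a median of -0.08. Gpaa1 and Pigt, both of the enzyme that attaches the anchor, had differences of -0.22 and -0.20.

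Serine protease inhibitors and other trypsin-fold proteases gave no call in edgeR either. Of 18 inhibitors tested 0 passed, with a median of -0.17 and 2 unadjusted p under 0.05. Serpina3n had CPM of 8.56, 11.8 and 6.94 in wild type and of 21.7, 14.3 and 12.7 in the knockout (0.83, adjusted p = 0.248), with knockout mouse 1 highest, as for the Leydig markers. Its adjusted p was 0.0206 with the mouse number as a block. Spint3 stood at 1.90 CPM in wild-type mouse 1 and between 0.259 and 0.543 in all others (-1.45, adjusted p = 0.544). Without wild-type mouse 1, the library with the Crisp1 counts, the Spint3 value was -0.44. Spink2, the acrosin inhibitor of germ cells, had a difference of -0.31 and Serpina5 one of 0.06. Of 15 other proteases 0 passed, with a median of 0.04 and 4 unadjusted p under 0.05. Plau, urokinase, had CPM of 3.17, 3.22 and 3.01 against 5.30, 4.69 and 4.30 (0.60, adjusted p = 0.287). Klk1b21, a kallikrein, had CPM of 5.89, 7.02 and 6.70 in wild type and of 80.9, 30.8 and 20.5 in the knockout, without overlap. Its log2 fold change was 2.75 (SE 0.63, adjusted p = 0.373 in edgeR). Its near copies Klk1b24 and Klk1b27, named here after their values were seen, had means of 7.78 and 3.69 CPM in wild type and of 43.2 and 35.8 CPM in the knockout, and reads may be split between the 3. DESeq2 called all 3 and limma voom called Klk1b21. Klk1b21 passed in DESeq2 (adjusted p = 0.00123), in limma voom (0.0334), on the 3 log2 TPM scales (0.0195 to 0.0354) and in edgeR without knockout mouse 1 (2.76e-07). Over all alternatives its adjusted p ran from 2.76e-07 to 0.813. Knockout mouse 1, its highest library, is also the highest for the Leydig markers, and their part was not tested.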

How the data were processed

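Testis RNA of 3 wild-type and 3 Nsun7-/- mice was depleted of ribosomal and globin RNA, per the labels' protocols. Per the submitters' processing notes, kallisto 0.50.1 and mm39 were used; which annotation release and strand setting went with them is not given in the sources used here. For genes the authors deposited counts as whole numbers and TPM, and for 126126 transcripts the estimated counts, TPM, lengths and effective lengths per library, per the file headers. The deposited TPM moves with the share of Rmrp. No column belonged to another sample (0 found).

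Gene counts, and transcript estimates rounded to whole numbers, were tested on all 6 libraries in R 4.3.3 with edgeR 4.0.16. Steps were TMM scaling, filterByExpr (minimum count 10, total 15), robust quasi-likelihood test of genotype, and Benjamini-Hochberg adjustment over all 21002 genes or 58773 transcripts, with a threshold of 0.05. Each SE was obtained as the log2 fold change over the root of F. DESeq2 1.42.0 and limma 3.58.1 (voom, and log2 of TPM with pseudocounts of 1 and 0.1) served as alternatives. Symbols, gene order, overlaps and 31-base stretches came from GENCODE M21 (GRCm38), so no coordinates of measured features are given. Prss59 was matched to the transcripts of 1700074P13Rik there, whose sums lay within 0.001 counts of the gene row in every library.

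The members and lists were chosen with earlier results of these data known. Named genes were Prss47, members past the threshold, the 16 of highest mean TPM, the 5 of smallest p, the 4 largest rises and 4 largest falls, Nsun7, Acr, Adam3, Spink2, Serpina5, the 2 of smallest p in each partner list and up to 3 neighbours on each side of Prss47.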

Additional observations from a re-analysis of the deposited data

How the results depend on the processing

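Leaving out 1 library in turn, the number of changed Prss genes was 0 to 1, all changed genes 67 to 166, the members' median log2 fold change -0.17 to -0.01, and Prss47 -1.09 to -0.78. The members with 1 TPM or more stayed at 25, and 0 transcripts passed each time. With wild-type mouse 1 and knockout mouse 3 left out together, 0 members passed and Prss47 was -0.83. With limma voom 0 members passed and Prss47 was -0.91. On log2(TPM + 1) 0 members and 36 genes passed, the members' median was 0.19 and Prss47 -0.64; with a pseudocount of 0.1 these were 0, 35, 0.22 and -0.69. With libraries centred on their median log2(TPM + 1), 0 members and 61 genes passed and Prss47 was -0.93. DESeq2 called 205 genes and the fit with no low-count filter 180, with Prss47 among them. Whether the mouse numbers pair the samples was not settled. Same-numbered libraries correlated at 0.243, -0.00698 and 0.288 in their deviations from the genotype means, for mouse 1, 2 and 3. The pairs of unlike number lay between -0.356 and 0.117, and wild-type mouse 2 was closest to knockout mouse 1 (0.117). With the number as a replicate block, 331 genes and 2 members passed, Prss47 (adjusted p = 0.00262) and Prss50 (0.00559), and 0 member transcripts. Of 737 checks of the named genes other than Prss47 and of its transcripts, 651 kept their direction and side of the threshold, 71 changed sign, 8 gained a call and 7 lost one. The 7 were all of Nsun7, with an adjusted p of 0.4, 0.457 and 0.108 on the 3 TPM scales and of 0.0848, 0.0556, 0.0785 and 0.093 without wild-type mouse 1, 2 or 3 or knockout mouse 2. The 8 were Klk1b21 in 6 alternatives and, with the block, Prss50 and Serpina3n (0.0206). Among the named genes, the log2 fold changes that changed sign were, on log2(TPM + 1), Prss39 0.26, Prss37 0.40, Prss21 0.12, Prss59 0.25, Prss55 0.20, Prss46 0.18, Prss42 0.17, Prss44 0.22, Prss52 0.27, Prss51 0.13, Prss43 0.15, Acr 0.17, Spink2 0.016, Pcsk4 0.091, Pigt 0.095, Mfsd14b 0.27 and Nlrp4f -0.039. On log2(TPM + 0.1) they were Prss39 0.26, Prss37 0.41, Prss21 0.12, Prss59 0.25, Prss55 0.20, Prss46 0.19, Prss42 0.18, Prss44 0.23, Prss52 0.28, Prss51 0.14, Prss43 0.16, Acr 0.17, Spink2 0.016, Pcsk4 0.092, Pigt 0.095, Mfsd14b 0.30 and Nlrp4f -0.11. On both of these scales Prss23, Prss36, Prss38 and Prss48, which are not named genes, also changed sign. On the centred scale they were Prss37 0.12, Prss12 -0.15, Adam3 -0.034, Cntnap3 -0.12, Olfr466 -0.20 and Nlrp4f -0.33, with Prss8 besides, and with a mean CPM of at least 1 Prss37 was 0.0039. With those same 2 libraries left out they were Prss46 0.019, Prss42 0.019, Prss58 -0.12, Acr 0.022, Adam3 -0.077, Gpaa1 0.0056, Cntnap3 -0.25, Mfsd14b 0.0073 and Nlrp4f -0.030. Prss36 and Prss48 changed sign there too. Leaving out 1 library turned the sign for the named genes Adam3 (-0.069 to 0.16), Cntnap3 (-0.092 to 0.36), Mfsd14b (-0.14 to 0.026), Prss37 (-0.068 to 0.025), Prss39 (-0.12 to 0.045), Prss51 (-0.27 to 0.0068), Prss52 (-0.14 to 0.021), Prss54 (-0.0086 to 0.18), Prss58 (-0.062 to 0.42), Prss59 (-0.20 to 0.036) and Serpina5 (-0.025 to 0.15). It also turned Prss8, Prss23, Prss36 and Prss48. The causes were not tested. With 3 mice per genotype, one-gene permutation tests cannot go below 0.1, and members with few counts, such as Prss33, allow no statement on small differences.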
